A study of Mus musculus with 8 samples.

Results

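A set of 10 transcription factor genes of the limb bud mesenchyme, Prrx1, Prrx2, Twist1, Tbx2, Tbx3, Tbx4, Pitx1, Shox2, Lmx1b and Alx4, were followed in messenger RNA of whole mouse embryos. They were chosen by gene symbol, and all 10 were found among the 18904 genes of the Meis1 table and among the 17348 genes of the Prep1 table. In all, 8 libraries were made from C57BL/6 embryos at embryonic day 11.5. For Meis1 there were 3 libraries with the knockout (KO) label and 3 of wild-type (WT) littermates. For Prep1, whose gene symbol is Pknox1, there was 1 hypomorph library and 1 of its WT littermates. The sources used here give neither allele, nor whether a library is 1 embryo or a pool, so spread between libraries may be partly technical. Limb cells are a minor part of a whole embryo, so each value averages the limb with every other tissue that uses the gene.

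Limb buds grow out of the flank as mesenchyme under an ectodermal ridge, and the factors described here divide that mesenchyme into domains. Prrx1 and Prrx2 are paired-related homeobox genes of limb and face mesenchyme, and Twist1 is a basic helix-loop-helix gene that keeps mesenchyme proliferating. Tbx4 and Pitx1 mark the hindlimb, Lmx1b the dorsal side, Alx4 the anterior side, Shox2 the proximal segment, and Tbx2 and Tbx3 the anterior and posterior margins. Meis1 and Prep1 are TALE homeobox factors, and Meis genes are known for their expression in the proximal limb. Several of the 10 genes also act elsewhere, among them Tbx2, Tbx3 and Shox2 in the heart, Lmx1b in the midbrain and hindbrain, Pitx1 in the pituitary and Alx4 in the face.

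Within each Meis1 group, letters a to c order the libraries by size, smallest first, because which labelled sample each one is cannot be told. Their totals were 4150576 to 4708972 counts in KO and 4174641 to 6069632 counts in WT, and the Prep1 totals were 5893401 counts in the hypomorph and 4000984 counts in WT. Levels are given as counts scaled to library size (CPM) after TMM scaling, a correction for library composition. Markers of nervous system (Sox2, Pax6, Tubb3), heart (Myl7, Tnnt2, Actc1), liver (Alb, Afp), muscle (Myog, Myf5), blood (Hba-a1, Gata1) and limb ectoderm (Fgf8, Sp8) were all measured in both tables, as a whole embryo should give. Meis1 itself read 88.8, 69.9 and 72.8 CPM in KO (a to c), against 95.01, 90.4 and 115 CPM in WT (a to c). The groups did not overlap, with a log2 difference of -0.38 (SE 0.16, edgeR adjusted p = 0.9999), but transcript was present in every KO library, and without the allele its level does not check the labels. Pknox1 had 14 counts in the hypomorph against 129 counts in Prep1 WT, which is 2.36 against 32.5 CPM. One library stood apart: the 10 genes of a list of low-oxygen responses summed to 7549 CPM in KO a and to 2001 and 2174 CPM in the other KO libraries, against 1640 to 2285 CPM in WT.

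No limb factor was called in the Meis1 KO libraries by the test across all genes. The 10 log2 differences, KO over WT, ran from -0.28 for Lmx1b to 0.18 for Tbx3, and 7 of 10 were below 0, where 50.1% of the 14429 genes tested were below 0. Their median was -0.11, against -0.00 for all genes tested. By the quasi-likelihood test of edgeR, with Benjamini-Hochberg adjustment over all genes, 0 of the 10 members passed a false discovery rate (FDR) of 0.05, and 0% of all genes did. Their adjusted p was 0.9999 each, and at an unadjusted p under 0.05 there were 0 members, beside 1.57% of all genes. DESeq2 and limma-voom likewise called 0 members and put 0 of them under an unadjusted p of 0.05. All 10 differences were under 0.3 in size, beside 84.3% of all genes, a limit that lies close to the -0.28 of Lmx1b. The lower and upper deciles of all genes were -0.25 and 0.27, and Lmx1b lay below the lower one. KO and WT libraries overlapped for all 10 members, while 5.67% of all genes had groups that did not overlap (3.01% higher and 2.66% lower in KO). In bulk RNA of this kind, fewer cells of a type and less RNA per cell cannot be told apart.

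**Figure D1:**
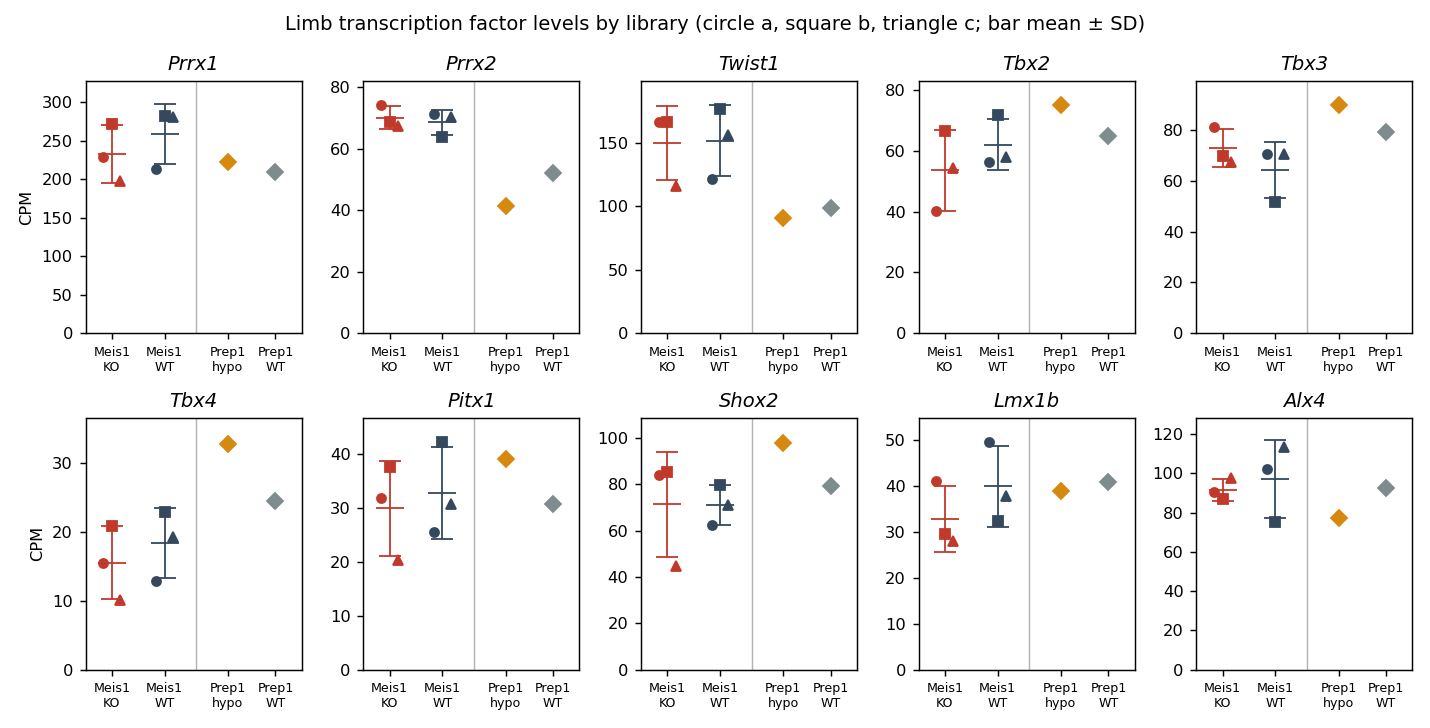
Level of each of the 10 genes in CPM (vertical axis, from 0) in KO and WT libraries of the Meis1 comparison (circle a, square b, triangle c; bar, mean ± SD, n = 3) and in the single hypomorph and WT libraries of the Prep1 comparison (diamonds, scaled separately). KO and WT libraries overlap in every panel, and the relative spread is widest for Tbx4, at 10.2 to 22.9 CPM.

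The hindlimb pair varied most. Tbx4, the T-box gene of the hindlimb and lung bud (chromosome 11, 85699924 to 85729599 in mm9), had 62, 96 and 48 counts in KO (a to c) and 53, 103 and 117 counts in WT (a to c). That is 15.5, 20.8 and 10.2 CPM in KO and 12.9, 22.9 and 19.2 CPM in WT. The lowest library was a KO library and the highest a WT library, but KO b lay above WT a and WT c. The log2 difference was -0.25 with a standard error (SE) of 0.30 and a 95% interval of -0.91 to 0.42 (edgeR adjusted p = 0.9999). Pitx1, the homeobox gene that specifies hindlimb and acts upstream of Tbx4 (chromosome 13, 55926415 to 55937553), read 31.8, 37.7 and 20.3 CPM in KO (a to c). In WT a, b and c it read 25.5, 42.2 and 30.7 CPM. Its log2 difference was -0.13 (SE 0.26, interval -0.70 to 0.44, edgeR adjusted p = 0.9999).

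Both genes were lowest in KO c and highest in WT b, with WT a the second lowest and KO b the second highest for each. Over the 6 libraries Tbx4 differed 2.25-fold and Pitx1 2.07-fold between the highest and the lowest, where the median gene above 10 CPM differed 1.48-fold and 13.1% of such genes differed over 2-fold. Those genes were not matched for level, and counting error widens the fold of Tbx4 at 48 to 117 counts. Variation between libraries beyond counting error was fitted at 25.0% for Tbx4, where the trend at its level was 21.4%. For Pitx1 it was 22.1%, beside a trend of 18.0%. The ratio of Pitx1 to Tbx4 per length of transcript moved less, at 2.62, 2.32 and 2.56 in KO (a to c) and 2.54, 2.36 and 2.05 in WT (a to c), a 1.28-fold range. Tbx5, the forelimb counterpart of Tbx4, read 17.0, 19.7 and 20.8 CPM in KO (a to c) and 18.7, 19.1 and 24.6 CPM in WT (a to c). The ratio of Tbx4 to Tbx5 per length was 1.25, 1.45 and 0.673 in KO (a to c), against 0.946, 1.65 and 1.07 in WT (a to c). The KO and WT ranges of this hindlimb to forelimb ratio overlapped.

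**Figure D2:**
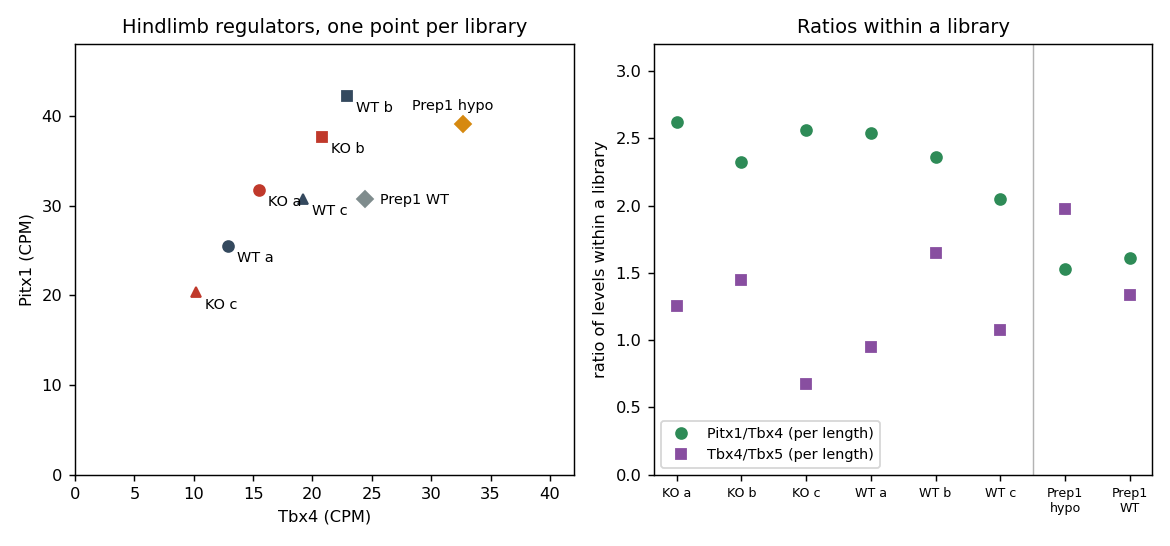
Left, Pitx1 against Tbx4 in CPM, 1 point per library (red KO, dark blue WT, diamonds the Prep1 pair). Right, the ratios of Pitx1 to Tbx4 and of Tbx4 to Tbx5 per length within each library, where Pitx1 to Tbx4 stays between 2.05 and 2.62 in the 6 Meis1 libraries while Tbx4 to Tbx5 runs from 0.673 to 1.65.

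The start region of Tbx4 is shown because this gene had the widest spread between libraries and the highest ratio in the Prep1 pair. RefSeq sequences on GRCm38.p6 were matched for 6 of the 10 genes, Prrx1, Prrx2, Twist1, Tbx4, Shox2 and Lmx1b. The 250 bases before the annotated start of Tbx4 (chr11:85896515-85896764, plus strand) are given with capitals on CATCTG, the reverse complement of the E-box CAGATG, and on TTTATA, the reverse complement of TATAAA.
Tbx4: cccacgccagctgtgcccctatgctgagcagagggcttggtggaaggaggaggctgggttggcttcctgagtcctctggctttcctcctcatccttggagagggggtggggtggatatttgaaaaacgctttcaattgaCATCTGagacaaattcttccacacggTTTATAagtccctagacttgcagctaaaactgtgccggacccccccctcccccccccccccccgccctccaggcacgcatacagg
The 300-base windows, 250 bases before and 50 bases after each start, were searched on both strands for 8 short motifs. The Meis site TGACAG was in 0 of the 6 windows, beside 19.2% of 32851 promoters, and the Pbx and Prep site TGATTGAC was in 0 of 6, beside 0.770% of promoters. The E-box CAGATG was in 1 of 6 (17.2% of promoters), TATAAA in 3 of 6 (13.6%) and the homeobox core TAATTA in 1 of 6, Prrx1 (5.29%). The Pitx site TAATCC (7.06% of promoters), the T-box site AGGTGTGA (1.28%) and the Twist E-box CATATG (3.91%) were in 0 of 6. TAATTA and CATATG read the same on both strands, and no 2 of the matches overlapped. A match describes these letters only, and an absent one says nothing of sites outside the window.

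Shox2, the homeobox gene of the proximal limb segment and the cardiac pacemaker region (chromosome 3, 66775649 to 66785693 in mm9), was low in 1 library. It read 83.8, 85.1 and 44.9 CPM in KO (a to c) and 62.4, 79.5 and 70.9 CPM in WT (a to c). KO a and KO b lay above all WT libraries and KO c below all of them. Its log2 difference was 0.00 with an SE of 0.23 and an interval of -0.51 to 0.52 (edgeR adjusted p = 0.9999). In the authors' deposited table, the ratio of the variance of Shox2 in KO to the fitted variance is 2.37, the largest of the 10 genes in either group, against 0.414 in WT. Its upstream sequence (chr3:66981772-66982021 on GRCm38.p6, minus strand) has TATAAA in capitals and is shown as that of a further member lowest in KO c. Tbx4, Prrx1, Twist1, Pitx1 and Lmx1b were lowest in that library too. Of these, Tbx4 and Twist1 had TATAAA in their windows, Prrx1 and Lmx1b did not, and Pitx1 had no matched window.
Shox2: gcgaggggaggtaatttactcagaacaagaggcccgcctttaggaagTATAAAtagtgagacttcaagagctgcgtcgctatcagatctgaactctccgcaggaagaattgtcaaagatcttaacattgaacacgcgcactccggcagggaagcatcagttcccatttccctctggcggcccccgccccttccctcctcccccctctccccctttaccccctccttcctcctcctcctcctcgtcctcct

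The paired-related genes were the pair with the least spread between libraries. Prrx2 (chromosome 2, 30690492 to 30736761) was the steadiest member, at 74.3, 68.6 and 67.3 CPM in KO (a to c) and 71.4, 63.9 and 70.3 CPM in WT (a to c). The highest library was 1.16 times the lowest, and the log2 difference was 0.03 (SE 0.13, interval -0.26 to 0.32, edgeR adjusted p = 0.9999). Prrx1 (chromosome 1, 165175247 to 165243841) had the most counts of the 10, with 916, 1256 and 934 in KO (a to c) and 879, 1274 and 1708 in WT (a to c). It read 229, 272 and 198 CPM in KO and 214, 283 and 280.5 CPM in WT. KO b lay inside the WT range, and KO c was the lowest of the 6 libraries. KO minus WT gave -0.15 on the log2 scale (SE 0.17, interval -0.52 to 0.22, edgeR adjusted p = 0.9999). Prrx1 was 0.547, 0.702 and 0.520 times Prrx2 per length in KO (a to c) and 0.530, 0.784 and 0.707 times in WT (a to c). The upstream sequence of Prrx2 (chr2:30845117-30845366 on GRCm38.p6, plus strand) is shown as that of the steadiest member, and it holds none of the 8 motifs, so no letters are in capitals.
Prrx2: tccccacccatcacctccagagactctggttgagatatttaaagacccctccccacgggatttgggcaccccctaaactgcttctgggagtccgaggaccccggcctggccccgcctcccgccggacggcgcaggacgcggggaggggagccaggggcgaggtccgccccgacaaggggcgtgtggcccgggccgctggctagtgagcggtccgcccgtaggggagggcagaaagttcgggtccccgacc
Its G and C content was 70.0%, beside 58.4% for Tbx4, 55.6% for Shox2 and a median of 52.4% over all promoters.

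Twist1 (chromosome 12, 34642536 to 34644682), which restrains differentiation of mesenchyme and is needed for limb outgrowth, read 166, 166 and 116 CPM in KO (a to c). In WT a, b and c it read 121, 177 and 156 CPM. KO c and WT a were the low libraries for this gene too, and the group means were 149.6 ± 29.0 CPM in KO and 151 ± 27.9 CPM in WT (SD, n = 3 each). On the log2 scale the difference was -0.02 (SE 0.19, interval -0.44 to 0.40, edgeR adjusted p = 0.9999). Twist2, its close relative in dermal mesenchyme, read 19.5, 38.1 and 22.9 CPM in KO (a to c) and 27.0, 45.5 and 39.1 CPM in WT (a to c). Its log2 difference was -0.47 (SE 0.27, edgeR adjusted p = 0.9999).

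The T-box repressors Tbx2 and Tbx3 differed from each other in direction. Tbx2 (chromosome 11, 85646053 to 85655450), which lies 44473 bases before Tbx4, read 40.03, 66.7 and 54.2 CPM in KO (a to c) and 56.4, 71.7 and 58.0 CPM in WT (a to c). KO a was far below the rest, while KO b lay above WT a and WT c. The log2 difference was -0.21 (SE 0.20, interval -0.64 to 0.23, edgeR adjusted p = 0.9999), and -0.04 without KO a. Tbx3 (chromosome 5, 120120678 to 120134733) read 81.3, 69.9 and 67.3 CPM in KO (a to c) and 70.7, 51.5 and 70.5 CPM in WT (a to c). WT b was the low library and KO a the high one, the reverse of Tbx2. A log2 difference of 0.18 was fitted (SE 0.16, interval -0.19 to 0.55, edgeR adjusted p = 0.9999), and 0.04 without WT b. Tbx2 was 0.899, 1.74 and 1.47 times Tbx3 per length in KO (a to c) and 1.46, 2.54 and 1.50 times in WT (a to c). KO a, where Tbx2 was lowest, is also the library high in the low-oxygen list, whose part in the Tbx2 value was not tested.

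Lmx1b, the LIM homeobox gene of dorsal limb identity (chromosome 2, 33416485 to 33496031), had the lowest log2 difference of the 10, at -0.28 (SE 0.21, interval -0.75 to 0.19, edgeR adjusted p = 0.9999). It read 41.0, 29.4 and 28.0 CPM in KO (a to c) and 49.6, 32.4 and 37.8 CPM in WT (a to c). KO b and KO c were the lowest libraries, and KO a lay above WT b and WT c. WT a was the highest of the 6. Relative to the WT mean, the median of genes of the midbrain and hindbrain border, where Lmx1b also acts, was 0.11, 0.04 and 0.39 log2 units in KO (a to c) and 0.69, -0.69 and 0.06 in WT (a to c). Lmx1b was at 0.06, -0.41 and -0.49 in KO and at 0.33, -0.27 and -0.06 in WT. Both Lmx1b and that list were highest in WT a, and both were below the WT mean in WT b. Lmx1b was lowest in KO c, where the list was the second highest. The part of the midbrain and hindbrain in the Lmx1b values was not tested. Alx4, an aristaless-like gene of anterior limb and face mesenchyme (chromosome 2, 93482541 to 93521496), read 90.3, 86.8 and 97.4 CPM in KO (a to c) and 102, 75.0 and 114 CPM in WT (a to c). Every KO library lay between the lowest and the highest WT library. The log2 difference was -0.08 (SE 0.17, interval -0.46 to 0.29, edgeR adjusted p = 0.9999).

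Among the 6 Meis1 libraries, the median of the members was lowest in KO c. That was the lowest library for Prrx1, Twist1, Tbx4, Pitx1, Shox2 and Lmx1b. Tbx2 was lowest in KO a, and Prrx2, Tbx3 and Alx4 were lowest in WT b. Relative to the WT mean, 8 of 10 were lower in KO c, with a median of -0.37 on the log2 scale and Tbx4 (-0.79), Shox2 (-0.65) and Pitx1 (-0.65) the farthest down. Tbx3 (0.08) and Alx4 (0.03) were above it. The share of all genes below the WT mean in KO c was not counted, so the 8 of 10 has no background beside it. The median was 0.02 and 0.12 in the other KO libraries (a, b), against -0.15, 0.15 and 0.05 in WT (a to c). In WT b, Pitx1, Tbx4, Twist1, Tbx2, Shox2 and Prrx1 were above the WT mean, while Alx4, Tbx3, Lmx1b and Prrx2 were below it. A list of 10 genes of general mesenchyme, none of them at 0, summed to 4607, 4871 and 3425 CPM in KO (a to c) and 3103, 5142 and 4134.5 CPM in WT (a to c). KO c and WT a were the low libraries for this sum as for Tbx4 and Pitx1. Myog, a muscle differentiation gene, read 9.26, 31.0 and 14.0 CPM in KO (a to c) and 8.75, 35.1 and 25.0 CPM in WT (a to c). The muscle gene Myf5 moved less, from 4.50 CPM in KO a to 6.40 CPM in WT c. The part of these tissues, or of embryo stage, in the limb factor values was not tested.

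**Figure D3:**
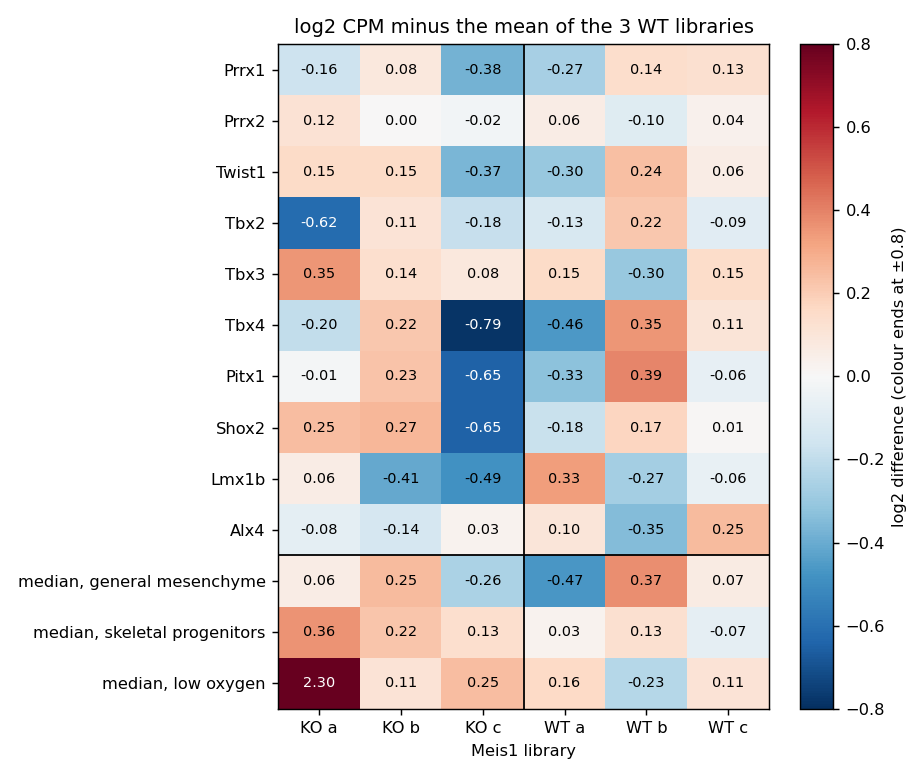
Difference in log2 CPM from the mean of the 3 WT libraries, for the 10 members and for the medians of 3 gene lists (rows) in the 6 Meis1 libraries (columns). KO c holds the lowest values of Tbx4 (-0.79), Pitx1 (-0.65) and Shox2 (-0.65), and KO a stands apart in the low-oxygen list (2.30).

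Levels could be ordered per length of transcript, as CPM per kilobase of annotated exon (RPKM). Twist1 was highest in all 6 libraries, with a mean of 92.5 RPKM, followed by Prrx2 at 35.4 RPKM, which was above Prrx1 in all 6. Prrx1 (22.2 RPKM) and Shox2 (21.5 RPKM) were neighbours whose ranges overlapped, with Prrx1 above in 4 of 6 libraries. Tbx2 (15.9 RPKM), Alx4 (13.3 RPKM), Pitx1 (11.8 RPKM) and Tbx3 (10.3 RPKM) followed with overlapping ranges. Lmx1b (7.45 RPKM) was below Tbx3 in all 6, and Tbx4 (4.97 RPKM) had the lowest mean, below Lmx1b in 4 of 6 libraries. With the length of the longest coding transcript instead, the first 5 places were unchanged and Tbx3 moved from the eighth place to the sixth. With that length Prrx1 had a mean of 37.7 RPKM, against 23.1 RPKM for Shox2 and 48.1 RPKM for Prrx2. The closeness of Prrx1 to Shox2 and the ratios of Prrx1 to Prrx2 therefore depend on the length used. In the Prep1 pair Twist1 was first in both libraries, at 55.8 RPKM in the hypomorph and 60.5 RPKM in WT. The hypomorph had Shox2 second, at 29.6 RPKM, and Lmx1b last, at 7.97 RPKM, below Tbx4 at 9.60 RPKM. The Prep1 WT library had Prrx2 second, at 26.6 RPKM, and Tbx4 last, at 7.19 RPKM.

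In the Prep1 comparison no limb factor passed 2-fold, beside 2.47% of the 13780 genes that reached 20 counts in 1 of the libraries. The pair has 1 library per group and no test. Log2 ratios, hypomorph over WT, ran from -0.34 for Prrx2 to 0.41 for Tbx4, with a median of 0.14 over the members and 0.00 over all genes, and 6 of 10 were above 0, beside 50.4% of all genes. Of the 10 counting intervals, 5 left out 0, where 25% of all genes did, and these intervals hold counting error only. They narrow as counts rise, and the members, at 97 to 1320 counts, were not matched for depth with all genes. Tbx4 had 194 counts (32.7 CPM) in the hypomorph and 97 counts (24.4 CPM) in WT, a log2 ratio of 0.41 with an interval of 0.06 to 0.79. Pitx1 had 232 counts (39.1 CPM) in the hypomorph and 122 counts (30.7 CPM) in WT, a log2 ratio of 0.34 (0.02 to 0.67). Shox2 had 582 counts (98.0 CPM) in the hypomorph and 315 counts (79.4 CPM) in WT, a log2 ratio of 0.30 (0.10 to 0.51). These 3 were the highest log2 ratios of the 10. Meis1 read 118 CPM in the hypomorph and 142 CPM in WT (log2 ratio -0.27), and Tbx5 was at 22.7 CPM in the hypomorph and 25.2 CPM in WT (log2 ratio -0.15).

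Prrx2 had 245 counts (41.2 CPM) in the hypomorph and 207 counts (52.1 CPM) in WT, a log2 ratio of -0.34 (-0.61 to -0.06). Alx4 had 460 counts (77.4 CPM) in the hypomorph and 367 counts (92.5 CPM) in WT, a log2 ratio of -0.25 (-0.46 to -0.05). The other 5 had intervals that held 0. Tbx2 read 75.1 CPM in the hypomorph and 65.0 CPM in WT, and Tbx3 read 90.1 against 79.1 CPM, log2 ratios of 0.21 and 0.19. Prrx1 read 222 CPM in the hypomorph and 209.6 CPM in WT (log2 ratio 0.08), and Twist1 read 90.9 against 98.5 CPM (-0.12). Lmx1b read 38.9 CPM in the hypomorph and 40.8 CPM in WT (-0.07). Only for Prrx2, 1 of the 10, was the fold between hypomorph and WT (1.26) larger than the fold between the highest and lowest Meis1 WT libraries (1.12). For Tbx4 the folds were 1.33 in the Prep1 pair and 1.78 among the Meis1 WT libraries. The measures are unlike, since a fold between the extremes of 3 libraries tends to exceed that of a single pair. The count of 1 of the 10 therefore does not place the Prep1 ratios within the usual spread. The deposited log2 ratios of the authors' table are not scaled for depth and lie between 0.243 for Prrx2 and 1.0 for Tbx4, all above 0, with 5893401 counts in the hypomorph and 4000984 in WT.

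**Figure D4:**
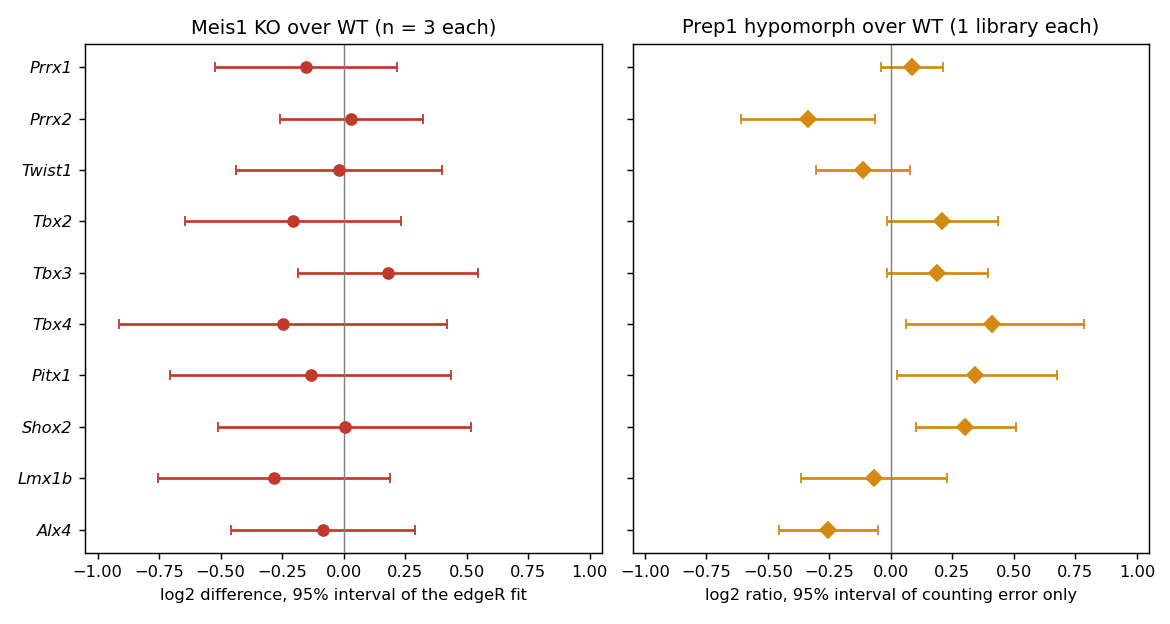
Log2 difference of each member, KO over WT in the Meis1 comparison (left, bars the 95% interval of the edgeR fit, n = 3 each) and hypomorph over WT in the Prep1 comparison (right, bars the 95% interval of counting error only, 1 library each). On the left all 10 intervals hold 0, and on the right those of Tbx4, Pitx1 and Shox2 lie above 0 and those of Prrx2 and Alx4 below it.

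Set side by side, 5 of the 10 had opposite signs in Meis1 KO and in the Prep1 hypomorph: Tbx4 (-0.25 and 0.41), Pitx1 (-0.13 and 0.34), Tbx2 (-0.21 and 0.21), Prrx1 (-0.15 and 0.08) and Prrx2 (0.03 and -0.34). Tbx3 (0.18 and 0.19) and Shox2 (0.00 and 0.30) were above 0 in both, while Lmx1b (-0.28 and -0.07), Alx4 (-0.08 and -0.25) and Twist1 (-0.02 and -0.12) were below 0 in both. Signs of values this near 0 are not firm. With all libraries kept, Shox2 in the Meis1 comparison was at -0.003 without a filter on low counts and at -0.05 with limma-voom. The share of all genes with opposite signs was not counted. A difference between the 2 comparisons was not tested, since the Prep1 pair has no replicates.

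The other limb lists held 0 calls in the Meis1 comparison, as did the whole table (0% of 14429 genes). Of 22 limb signal and receptor genes, 21 were tested and 0 passed FDR 0.05, with 14 above 0, 7 below 0 and a median log2 difference of 0.09. Gli1, a transcriptional effector and target of Hedgehog signalling, read 49.0 ± 7.05 CPM in KO and 34.2 ± 3.16 CPM in WT (SD, n = 3 each), without overlap. Its log2 difference was 0.52 (SE 0.16, edgeR adjusted p = 0.9999). Ptch1, the Hedgehog receptor gene, read 89.8 ± 21.6 CPM in KO and 64.1 ± 15.8 CPM in WT (SD, n = 3 each), a log2 difference of 0.49 (SE 0.22, adjusted p = 0.9999 by edgeR). The median of this list was 0.49 above the WT mean in KO a and at most 0.07 above it in the other KO libraries, and it was -0.01 without KO a. Of 40 other limb regulators, 39 were tested and 0 passed, with 20 above 0, 19 below 0 and a median of 0.00. Meis2, the paralogue of Meis1 in the proximal limb, read 289.9 ± 38.3 CPM in KO and 221 ± 16.1 CPM in WT (SD, n = 3 each), a log2 difference of 0.39 (SE 0.14, adjusted p = 0.9999 by edgeR). Among 13 paralogues of the members, 11 were tested and 0 passed, and Tbx15 had a log2 difference of -0.42 (SE 0.31).

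In the Prep1 pair, 4 of 39 other limb regulators passed 2-fold, 3 higher and 1 lower in the hypomorph, beside 2.47% of all genes. Osr1, a zinc finger gene of connective tissue progenitors, had 189 counts in the hypomorph and 48 in WT, a log2 ratio of 1.37. Hic1, a transcriptional repressor of limb mesenchymal progenitors, had 200 counts in the hypomorph and 52 in WT, a log2 ratio of 1.34. Fgf8, the growth factor of the limb ridge that is also made in the brain and tail, had 14 counts in the hypomorph and 36 in WT, a log2 ratio of -1.78, and was the 1 limb signal gene of 21 past 2-fold. Of the skeletal progenitor genes 6 of 6 counted were above 0, beside 50.4% of all genes, with a median of 0.30, and Acan (27 counts in the hypomorph, 4 in WT) and Runx2 (109 and 33) passed 2-fold. Acan reached the minimum of 20 counts only in the hypomorph, and Fgf8 only in WT. The direction of these 2 genes therefore follows in part from that filter. So do the 6 of 6, the median and the 2-fold calls of the skeletal list, which include Acan. The single limb signal gene past 2-fold, Fgf8, has the same limit. The 10 general mesenchyme genes, none at 0, summed to 3911 CPM in the hypomorph and 2906 CPM in WT, with 9 of 10 above 0, beside the same 50.4% of all genes, and a median of 0.45. Dcn and Lum, matrix genes of fibroblasts, were at 1.01 and 0.86. Markers of other tissues differed in the pair as well. The liver genes Alb and Afp read 101 and 259.9 CPM in the hypomorph, against 14.9 and 108 CPM in WT, and Myog read 21.04 CPM in the hypomorph and 12.8 CPM in WT. Myf5, the other muscle gene, differed little, at 4.71 CPM in the hypomorph and 4.28 CPM in WT. The heart gene Actc1 read 179 CPM in the hypomorph and 227 CPM in WT. The neural genes did not share a direction. Pax6 read 83.3 CPM in the hypomorph and 116 CPM in WT, and Sox2 read 83.0 against 106 CPM. Tubb3 was higher in the hypomorph, at 438 against 394 CPM. The part of tissue makeup or stage in the values of Tbx4, Pitx1 and Shox2 was not tested.

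Lists for other places where the members act held no call in the Meis1 comparison. The median log2 difference was -0.02 for 12 genes of face and pharyngeal arch mesenchyme, with Lhx6 at -0.52 (SE 0.30) and Foxf2 at 0.26 (SE 0.30). It was -0.06 for 6 genes of the sinus venosus and atrioventricular canal. Of these, 4 were below 0 and 2 above, beside 50.1% of all genes below 0. Nppa was at 0.31, Isl1 at 0.13 and Gata4 at -0.05. The median was 0.14 for 6 genes of the midbrain and hindbrain border, 4 above 0 and 2 below, with Fgf17 at 0.88 (SE 0.45) and Otx2 at 0.42. The general mesenchyme list had a median of -0.05, with 6 of 10 below 0 and 4 above. Vim was at 0.23 and Pdgfrb at 0.19, against Lum at -0.22 and Dcn at -0.19. The low-oxygen list had a median of 1.32, with Vegfa at 372, 76.0 and 94.7 CPM in KO (a to c) and 67.0 ± 9.62 CPM in WT (SD, n = 3). Without KO a that median was 0.12.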

How the data were processed

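Total RNA of whole embryos was purified to mRNA and sequenced as single reads of 68 bases, per the labels' protocols, and expression was estimated with RSEM on mm9, per the submitters' processing notes. No source used here gives the strand setting, and exons of Tbx3, Shox2 and Pitx1 overlap an antisense gene by 115 to 165 bases in GENCODE M21.

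The Meis1 table holds signal values deposited by the authors, namely counts divided by size factors and averaged over a group, with the authors' log2 ratios, p-values and a variance ratio per group, per the file headers. The plan assumed counts per library, so the whole counts behind each mean were worked back. Of 18904 genes, 18888 (KO) and 18887 (WT) had a single set of whole counts within the printed precision. The deposited variance ratios, not used for this, were used as a check: the fitted variance they imply rose with the mean at a Spearman rho of 0.9995 in KO and in WT, against 0.809 in KO and 0.805 in WT when shuffled, across genes, which are not independent. With altered step sizes 0 of 7122 and 0 of 7195 genes had a solution. The other 19 genes, together 9.33% of the signal, were left out, so CPM refer to the genes used. The Prep1 table holds expected counts deposited by the authors as whole numbers, with 0 written as 0.1, and an unscaled log2 ratio.

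The Meis1 fit used edgeR 4.0.16 with TMM, filterByExpr and glmQLFTest over 14429 genes, beside DESeq2 1.42.0 and limma 3.58.1, and was tested on simulated data. Intervals are those of the fit. Replicates are separate samples by their titles, and nothing ties them to separate embryos, so p-values measure only the spread between these samples. For the Prep1 ratio, 2 was the prior count on TMM-scaled CPM, and exact 95% intervals cover counting error only. RPKM use the union of exons of GENCODE M21, with the longest coding transcript as an alternative added after seeing the data. The members and gene lists were chosen with earlier results of these data known. Of each list, the 2 genes with the smallest p and the 2 with the largest Prep1 ratio were open to naming. Tbx5, Myog and the ratios between genes were chosen after their values were seen.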

Additional observations from a re-analysis of the deposited data

How the results depend on the processing

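No paired analysis was possible because the recovered libraries cannot be matched to the sample titles, and the Prep1 pair has 1 library per group. The titles of both Meis1 groups hold 2 styles of code, whose meaning is not stated, and whether these go with differences between libraries was not tested. The count of members past FDR 0.05 stayed at 0 with DESeq2 size factors, without a filter on low counts, with DESeq2, with limma-voom and in the 6 fits without 1 library (0 to 0). Over all genes the count was 0 in these fits and 1 with DESeq2, which is not one of the 10, and at an unadjusted p under 0.05 there were 226 genes with edgeR, 163 with DESeq2 and 194 with limma-voom. The median log2 difference of the members, -0.11, lay between -0.12 and -0.11 in the fits on all libraries and between -0.18 (without KO b) and 0.02 (without KO c) with 1 library left out, so its sign rests on KO c. Among single genes, Tbx4 lay between -0.52 (without KO b) and -0.01 (without KO c), Lmx1b between -0.48 (without KO a) and -0.10 (without WT a), Prrx1 between -0.28 and -0.05, Tbx2 between -0.39 and -0.04 and Tbx3 between 0.04 and 0.25. The sign of Prrx2, Twist1, Pitx1, Shox2 and Alx4 changed in at least 1 such fit, with Shox2 between -0.15 and 0.25 and Pitx1 between -0.34 and 0.08. With all libraries kept, Shox2 also changed sign, at -0.003 without the filter and -0.05 with limma-voom. The sign of several list medians rests on single libraries too. Without 1 library they lay between -0.01 and 0.21 for limb signals, -0.09 and 0.05 for other limb regulators and -0.18 and 0.15 for face. They lay between -0.18 and 0.07 for sinus venosus, -0.00 and 0.55 for the midbrain and hindbrain border and -0.21 and 0.23 for general mesenchyme genes. The medians of paralogues (-0.15 to -0.03), skeletal progenitors (0.03 to 0.27) and the low-oxygen list (0.12 to 1.64) kept their sign. The Prep1 ratios kept their signs under scaling by total counts, DESeq2 size factors, a prior count of 0.5 and no filter, with the members' median between 0.13 and 0.16 and 0 members past 2-fold. Depth limits Tbx4 most, at 48 to 117 counts per Meis1 library.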

Other observations

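By their centred log2 CPM over the 6 Meis1 libraries, the 5 genes with the profile most like the mean of the members were Rftn2 (Pearson r = 0.974), Kirrel3 (0.969), Smarcd2 (0.964), 1810037I17Rik (0.962) and Amacr (0.957), out of 11061 genes with a mean of at least 10 CPM. Rftn2 read 24.3, 28.8 and 17.6 CPM in KO (a to c) and 21.1, 27.1 and 26.6 CPM in WT (a to c). With 6 libraries and this many genes compared, such values describe these libraries only, and no test was made.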
